A study of Mus musculus with 12 samples.

Results

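A set of 7 genes used to tell motor neuron subtypes apart, Mmp9, Chodl, Esrrb, Esrrg, Prkcd, Spp1 and Wnt7a, were followed by gene name through 12 RNA sequencing libraries of mouse spinal cord. These are 7 of 40912 gene IDs in the count table and 7 of the 15905 that passed the filter on low counts. All mice were at postnatal day 21 and carried a bacTRAP transgene, which makes the cells that express it produce EGFP fused to the ribosomal protein Rpl10a, so that their ribosomes can be pulled down with the RNA they hold. TRAP_Chat is the pulled-down RNA of Tg(Chat-EGFP/Rpl10a)DW167Htz mice, in which Chat sequences drive the tag, and TRAP_Snap25 is that of Tg(Snap25-EGFP/Rpl10a)JD362Jdd mice, in which Snap25 sequences drive it. PreIP_Chat and PreIP_Snap25 are the RNA of the same 2 lines taken before the pulldown, here called the inputs. Each group had 3 libraries. The series sets the motor neurons of the Chat line against all neurons of the Snap25 line.

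Motor neurons of the spinal cord differ in the muscle fibres they drive. Alpha motor neurons contract the force-producing fibres and are graded from fast, easily fatigued units to slow, enduring ones. Gamma motor neurons contract the muscle fibres inside muscle spindles. Mmp9, a secreted metalloproteinase that degrades matrix proteins, and Chodl, the membrane lectin chondrolectin, are markers of fast motor neurons. Spp1, the secreted glycoprotein osteopontin, marks alpha motor neurons. Esrrb and Esrrg encode orphan nuclear receptors of the estrogen-related family. Esrrb is used as a marker of slow motor neurons, and Esrrg of gamma motor neurons. Wnt7a, a secreted Wnt ligand, is a marker of gamma motor neurons, and Prkcd encodes protein kinase C delta, a kinase activated by diacylglycerol. Chat-driven tags also reach the other cholinergic neurons of the cord, such as preganglionic neurons and interneurons, so that none of the levels below is that of motor neurons alone.

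Total counts ran from 10149346 to 20521699 per library, and mitochondrial ribosomal RNA took from 0.209% to 40.7% of them, with the high shares in the inputs. Chat, which marks the cells tagged in the Chat line, averaged 159 ± 46.4 CPM in TRAP_Chat, 25 ± 4.56 CPM in TRAP_Snap25, 22.2 ± 7.24 CPM in PreIP_Chat and 16.1 ± 3.06 CPM in PreIP_Snap25 (SD, n = 3 each; CPM are the scaled counts that correct for library size). Of 12 listed genes of cholinergic motor neurons, 12 rose in the Chat-line pulldown against its input and 6 in the Snap25-line pulldown against its input. A pair of pulldown libraries stood apart from their groups. Replicate 1 of TRAP_Chat had 6.67% mitochondrial ribosomal RNA, against 0.303% and 0.358% in replicates 2 and 3. Replicate 3 of TRAP_Snap25 had a summed level of the cholinergic genes of 874 CPM, against 487 and 471 CPM in replicates 1 and 2. Single genes differed in this. Slc18a3 had 222 CPM there, against 74.2 and 35.4 CPM in replicates 1 and 2, and Prph 179 CPM, against 90.9 and 127 CPM. Slc5a7 had 43.1 CPM, against 49.1 and 38.1 CPM, and Isl1 0.407 CPM, against 1.91 and 2.07 CPM. Both of these libraries also held more oligodendrocyte RNA than the rest of their groups. The summed level of 10 oligodendrocyte markers was 5943 CPM in replicate 1 of TRAP_Chat, against 2179 and 3167 CPM in replicates 2 and 3. It was 5302 CPM in replicate 3 of TRAP_Snap25, against 2180 and 1722 CPM in replicates 1 and 2. Where leaving out one of these libraries changed a call or a direction, the value without it is given.

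Chodl, Spp1, Esrrb and Esrrg were the markers that rose in the pulldowns of both lines, and the letters before their start sites are shown for that reason. The windows hold the 250 bases before an annotated start, 5′ to 3′ on the plus strand, taken from RefSeq on GRCm38.p6. They lie at chr16:78930698-78930947 (Chodl), chr5:104434861-104435110 (Spp1), chr12:86360867-86361116 (Esrrb) and chr1:187651508-187651757 (Esrrg). Spp1, Esrrb and Esrrg also have other annotated starts. For these genes the printed window is the first listed that overlaps no exon of GENCODE M21. Capitals mark a match to the TATA box letters TATAAA.
Chodl: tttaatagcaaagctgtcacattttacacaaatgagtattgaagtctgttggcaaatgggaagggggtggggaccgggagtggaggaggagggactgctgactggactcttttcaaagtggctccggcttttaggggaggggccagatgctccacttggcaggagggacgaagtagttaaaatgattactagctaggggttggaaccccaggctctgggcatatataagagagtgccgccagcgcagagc
Spp1: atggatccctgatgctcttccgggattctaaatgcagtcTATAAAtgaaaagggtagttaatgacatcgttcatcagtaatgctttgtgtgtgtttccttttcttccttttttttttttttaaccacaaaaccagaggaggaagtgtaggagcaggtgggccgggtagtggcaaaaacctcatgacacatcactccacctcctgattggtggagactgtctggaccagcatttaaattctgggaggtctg
Esrrb: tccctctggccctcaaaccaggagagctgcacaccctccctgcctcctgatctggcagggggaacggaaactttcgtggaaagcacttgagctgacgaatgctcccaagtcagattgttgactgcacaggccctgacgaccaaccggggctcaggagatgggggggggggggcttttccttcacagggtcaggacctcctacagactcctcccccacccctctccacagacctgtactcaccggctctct
Esrrg: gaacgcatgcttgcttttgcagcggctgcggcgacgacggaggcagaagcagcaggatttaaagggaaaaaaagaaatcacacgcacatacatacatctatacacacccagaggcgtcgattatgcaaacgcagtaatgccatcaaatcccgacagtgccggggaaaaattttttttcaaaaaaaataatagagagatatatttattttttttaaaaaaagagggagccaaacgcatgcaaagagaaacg
Windows of the 250 bases before each start were searched on both strands for TATAAA and the GC box GGGCGG. They were also searched for the estrogen-related receptor element AAGGTCA, the AP-1 site TGANTCA and the homeodomain core TAATTA. The promoter table matched 6 of the 7 genes, with 12 starts among them, and Mmp9 was not matched. TATAAA was found in 3 of the 12 windows, against 12.4% of all 32851 windows, and GGGCGG in 4, against 32.7%. AAGGTCA was found in 0 of the 12, against 4.08% of all windows. TGANTCA and TAATTA were each found in 1 of the 12, against 6.75% and 4.84% of all windows. In the letters printed above the match is the TATAAA of Spp1, 211 bases before the start. No matches in the 12 windows overlapped each other.

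The first comparison asked which markers were held by ribosomes of the Chat-line tagged cells above the level of the whole cord. In TRAP_Chat against PreIP_Chat, 5 of the 7 markers rose and 0 fell (edgeR, Benjamini-Hochberg adjusted p under 0.05), while 12.6% of all tested genes rose and 14.3% fell. The 5 were Chodl, Spp1, Mmp9, Esrrb and Esrrg. The libraries of the groups did not overlap for 6 of the 7, Prkcd being the exception, with TRAP_Chat higher, as for 21.8% of all tested genes. The median log2 fold change was 1.89 over the 7 markers and -0.06 over all tested genes. In bulk RNA, more cells of a type and more RNA per cell cannot be told apart.

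Chodl had 106, 108 and 112 CPM in TRAP_Chat, 24.8, 23.7 and 14.7 CPM in TRAP_Snap25, 7.57, 11.2 and 8.73 CPM in PreIP_Chat, and 11.2, 6.02 and 11.5 CPM in PreIP_Snap25. All TRAP_Chat libraries lay far above the rest, all TRAP_Snap25 libraries lay above both inputs, and the inputs overlapped. The log2 fold change of TRAP_Chat over PreIP_Chat was 3.56 ± 0.31 (SE), or 11.8-fold (edgeR adjusted p = 3.41e-06). In the Snap25 line it was 1.14 ± 0.29, or 2.20-fold (edgeR adjusted p = 0.0107). Leaving out replicate 2 of PreIP_Snap25 gave 0.89 with an adjusted p of 0.0610 in edgeR, and the 6 Snap25-line libraries alone gave 1.16 with an adjusted p of 0.0552. Among the 7 markers Chodl had the smallest spread between TRAP_Chat libraries, with a mean of 108 ± 3.17 CPM (SD, n = 3), a coefficient of variation of 2.92%.

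Spp1 had 183, 204 and 216 CPM in TRAP_Chat, 130, 72.6 and 89.0 CPM in TRAP_Snap25, 33.2, 34.5 and 30.8 CPM in PreIP_Chat, and 35.0, 26.5 and 39.6 CPM in PreIP_Snap25. The order was as for Chodl, with no overlap between the pulldowns or between either pulldown and an input. Its log2 fold change was 2.61 ± 0.25 in the Chat line, or 6.13-fold (edgeR adjusted p = 7.0e-06), and 1.53 ± 0.25 in the Snap25 line, or 2.88-fold (edgeR adjusted p = 0.000645). Microglia and macrophages can also make osteopontin. Of 15 markers of those cells, 9 fell and 0 rose in TRAP_Chat against PreIP_Chat, and 11 fell and 0 rose in TRAP_Snap25 against PreIP_Snap25. Their summed level was 30.3 to 57.5 CPM in TRAP_Chat, 24.3 to 42.4 CPM in TRAP_Snap25, 166 to 184 CPM in PreIP_Chat and 134 to 243 CPM in PreIP_Snap25. The part of those cells in the Spp1 level was not tested. GENCODE M21 places another gene on the same strand over Spp1, Gm42793. How reads in that overlap were counted is not stated, so the Spp1 level may leave some of them out.

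Mmp9 had 29.5, 34.2 and 27.7 CPM in TRAP_Chat, 5.14, 8.32 and 22.2 CPM in TRAP_Snap25, 6.41, 8.47 and 4.39 CPM in PreIP_Chat, and 6.54, 3.56 and 5.80 CPM in PreIP_Snap25. TRAP_Chat lay above every other library, and replicate 3 of TRAP_Snap25 lay well above the other libraries of its group. The log2 fold change in the Chat line was 2.25 ± 0.46, or 4.74-fold (edgeR adjusted p = 0.00220). In the Snap25 line it was 1.15 ± 0.45 with an edgeR adjusted p of 0.0766. Without replicate 3 of TRAP_Snap25 it was 0.34 with an adjusted p of 0.546 in edgeR, so that most of this value rested on that library, and without replicate 1 it was 1.50 with an adjusted p of 0.0235. With all libraries it passed in DESeq2 (adjusted p = 0.0443) and with no filter on low counts (adjusted p = 0.0298 in edgeR). The summed cholinergic and oligodendrocyte levels of replicate 3 of TRAP_Snap25, given above, were also higher, although not every cholinergic gene was. Their part in the Mmp9 result was not tested.

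Esrrb had 20.8, 22.1 and 25.8 CPM in TRAP_Chat, 12.1, 13.8 and 12.9 CPM in TRAP_Snap25, 6.96, 5.70 and 5.87 CPM in PreIP_Chat, and 9.29, 5.44 and 4.43 CPM in PreIP_Snap25. The pulldowns did not overlap each other or the inputs. Its log2 fold change was 1.89 ± 0.32 in the Chat line, or 3.71-fold (edgeR adjusted p = 0.000662), and 1.02 ± 0.32 in the Snap25 line, or 2.02-fold (edgeR adjusted p = 0.0311). The Snap25-line call was lost without replicate 2 of TRAP_Snap25 (adjusted p = 0.0773 in edgeR), replicate 2 of PreIP_Snap25 (adjusted p = 0.123) or replicate 3 of PreIP_Snap25 (adjusted p = 0.116). It was also lost with no filter on low counts (0.99, adjusted p = 0.0743) and in a fit of the 6 Snap25-line libraries alone (1.04, adjusted p = 0.0877). In these alternatives the log2 value stayed between 0.80 and 1.04.

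Esrrg had 196, 228 and 196 CPM in TRAP_Chat, 205, 257 and 111 CPM in TRAP_Snap25, 81.8, 105 and 95.6 CPM in PreIP_Chat, and 104, 99.7 and 67.2 CPM in PreIP_Snap25. Both pulldowns lay above both inputs, and the pulldowns overlapped each other. The log2 fold change was 1.13 ± 0.28 in the Chat line, or 2.19-fold (edgeR adjusted p = 0.00735), and 1.08 ± 0.28 in the Snap25 line, or 2.11-fold (edgeR adjusted p = 0.0116). The Snap25-line call was lost without replicate 2 of TRAP_Snap25 (adjusted p = 0.0686 in edgeR) or replicate 3 of PreIP_Snap25 (adjusted p = 0.0524). GENCODE M21 lists antisense and other genes over Esrrg, among them Gm36388 on the opposite strand and Gm38315 on the same strand. Without a stated strand setting, reads of the genes on the opposite strand cannot be told apart from those of Esrrg. How reads in the overlap with Gm38315 were counted is not stated.

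Wnt7a had 7.17, 16.4 and 11.0 CPM in TRAP_Chat, 1.25, 1.28 and 3.46 CPM in TRAP_Snap25, 3.72, 5.04 and 5.66 CPM in PreIP_Chat, and 2.91, 2.59 and 7.10 CPM in PreIP_Snap25. TRAP_Chat lay above every other library, although its lowest was close to the highest of PreIP_Snap25, and TRAP_Snap25 held the lowest mean. The log2 fold change was 1.26 ± 0.52 in the Chat line (edgeR adjusted p = 0.0808) and -1.10 ± 0.54 in the Snap25 line (edgeR adjusted p = 0.155), neither past the threshold. The Chat-line value passed it in DESeq2 (adjusted p = 0.0414), in limma voom (adjusted p = 0.0426), in edgeR with the 6 Chat-line libraries alone (adjusted p = 0.0310) and in edgeR with the replicate number as a block (adjusted p = 0.0499). Without replicate 3 of TRAP_Snap25 the Snap25-line value was -1.73 with an adjusted p of 0.0347 in edgeR.

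Prkcd had 11.7, 36.5 and 32.8 CPM in TRAP_Chat, 5.36, 10.3 and 8.75 CPM in TRAP_Snap25, 18.5, 11.4 and 13.5 CPM in PreIP_Chat, and 10.3, 9.45 and 10.1 CPM in PreIP_Snap25. Replicate 1 of TRAP_Chat lay within the range of PreIP_Chat and the other TRAP_Chat libraries lay above it. The log2 fold change was 0.90 ± 0.38 in the Chat line (edgeR adjusted p = 0.0910), and 1.26 with an adjusted p of 0.0129 without replicate 1. That library also had the high mitochondrial ribosomal RNA share and oligodendrocyte level given above, whose part in the result was not tested. In the Snap25 line the value was -0.29 ± 0.39 (edgeR adjusted p = 0.638), with a 95% interval from -1.11 to 0.53.

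**Figure D1:**
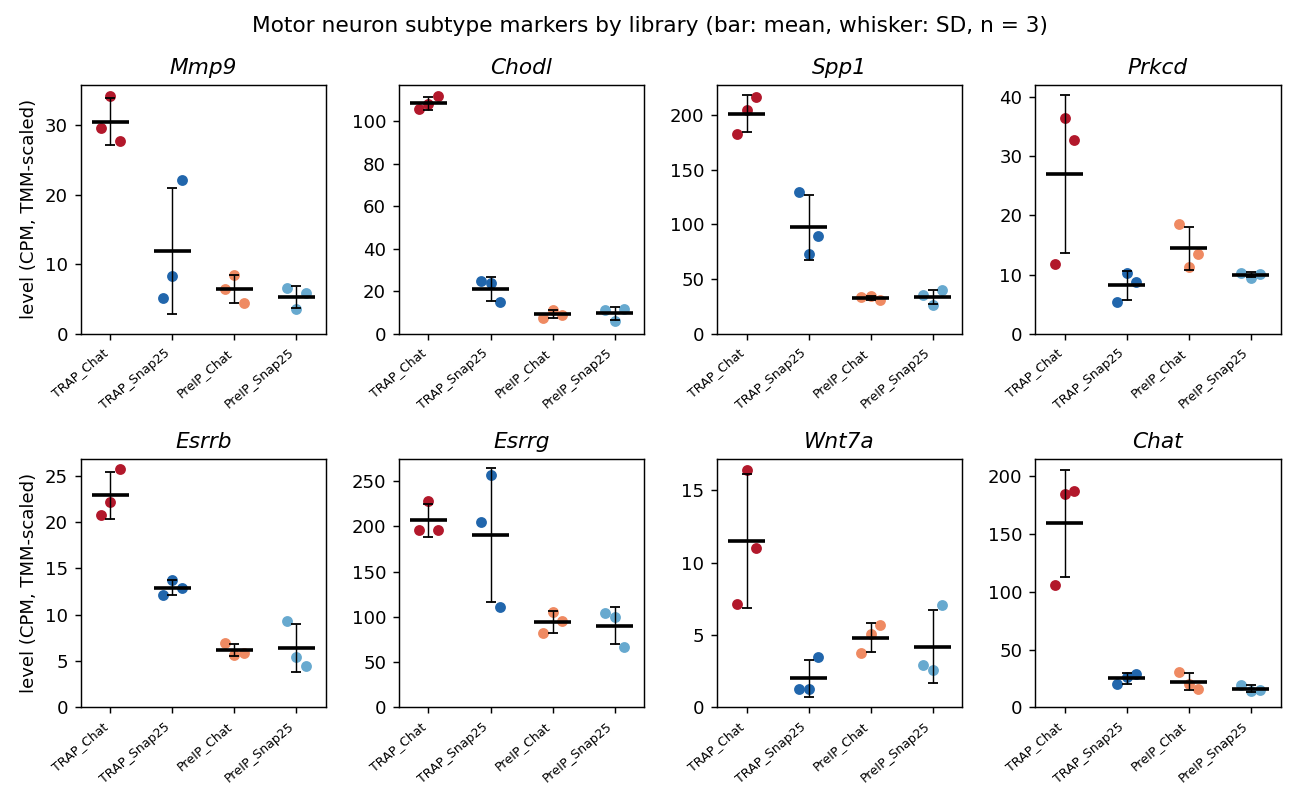
Level of each marker in every library, and of Chat for reference, in CPM on linear axes that start at 0, for TRAP_Chat, TRAP_Snap25, PreIP_Chat and PreIP_Snap25 from left to right. Points are libraries, bars are group means and whiskers are SD (n = 3). Chodl lies near 108 CPM in all 3 TRAP_Chat libraries, while Prkcd ranges from 11.7 to 36.5 CPM there.

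In TRAP_Snap25 against PreIP_Snap25, 4 of the 7 markers rose and 0 fell, while 9.69% of all tested genes rose and 12.7% fell (edgeR, adjusted p under 0.05). These were Spp1, Chodl, Esrrg and Esrrb. The libraries of the groups did not overlap for these 4, with TRAP_Snap25 higher, as for 16.6% of all tested genes. Their number was 2 without replicate 2 of TRAP_Snap25, replicate 2 of PreIP_Snap25 or replicate 3 of PreIP_Snap25, and 2 in a fit of the 6 Snap25-line libraries alone. The median log2 fold change of the 7 markers was 1.08, against -0.00 over all tested genes.

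The comparison named by the series sets the Chat-line pulldown against the Snap25-line pulldown. In it 4 of the 7 markers were higher in TRAP_Chat and 0 were lower, while 3.97% of all tested genes were higher and 2.77% lower (edgeR, adjusted p under 0.05). The 4 were Wnt7a, Chodl, Prkcd and Spp1. The median log2 fold change was 1.37 over the 7 markers and 0.01 over all tested genes. This comparison shares the TRAP_Chat libraries with the first and the TRAP_Snap25 libraries with the second.

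Wnt7a was 5.86-fold higher in TRAP_Chat than in TRAP_Snap25 (log2 2.55 ± 0.55, edgeR adjusted p = 0.0102), although against PreIP_Chat it did not pass the threshold. Chodl was 5.13-fold higher (log2 2.36 ± 0.30, edgeR adjusted p = 0.000164). Prkcd was 3.31-fold higher (log2 1.73 ± 0.39, edgeR adjusted p = 0.0143), and the call was lost without replicate 2 of TRAP_Chat (1.48, adjusted p = 0.0529) or replicate 1 of TRAP_Snap25 (1.50, adjusted p = 0.0547). Spp1 was 2.07-fold higher (log2 1.05 ± 0.24, edgeR adjusted p = 0.0145), and without replicate 2 of TRAP_Snap25 the value was 0.88 with an adjusted p of 0.0672. A fit of the 6 pulldown libraries alone called 2 markers, losing Prkcd and Spp1.

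Mmp9 and Esrrb were higher in every TRAP_Chat library than in any TRAP_Snap25 library, but did not pass the threshold. Mmp9 had a log2 difference of 1.37 ± 0.44 (edgeR adjusted p = 0.0758), and 2.17 with an adjusted p of 0.00310 without replicate 3 of TRAP_Snap25. With all libraries it passed in DESeq2 (adjusted p = 0.0257), in limma voom (adjusted p = 0.00887) and with no filter on low counts (adjusted p = 0.00955). Esrrb had a log2 difference of 0.82 ± 0.31 (edgeR adjusted p = 0.132). For Esrrg the difference was 0.11 ± 0.28 (edgeR adjusted p = 0.869), with a 95% interval from -0.47 to 0.70, and it was -0.16 without replicate 3 of TRAP_Snap25. In all, the libraries of the groups did not overlap for 6 of the 7 markers, with TRAP_Chat higher, against 10.3% of all tested genes.

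The series names all neurons as the tagged cells of the Snap25 line, which would include inhibitory neurons. In TRAP_Snap25 against PreIP_Snap25, 0 of 7 listed GABAergic and glycinergic genes rose and 1 fell. Of 6 glutamatergic genes 1 rose and 0 fell, and of 10 general neuron genes 1 rose and 0 fell. All 10 oligodendrocyte markers fell, while 9.69% of all tested genes rose and 12.7% fell. Of 7 listed GABAergic and glycinergic genes, 6 were lower in TRAP_Chat than in TRAP_Snap25, and their summed level was 145 to 302 CPM in TRAP_Chat against 967 to 1297 CPM in TRAP_Snap25. Of 6 glutamatergic genes, 2 were lower, with sums of 59.7 to 69.8 CPM in TRAP_Chat and 177 to 246 CPM in TRAP_Snap25. Their part in the differences of the markers was not tested. Of 10 oligodendrocyte markers, 0 were called between the pulldowns in edgeR, and of 15 microglia and macrophage markers, 0. Some genes listed as markers of other cells were higher in TRAP_Chat than in TRAP_Snap25 along with the motor neuron markers. Of 10 astrocyte markers, Sox9 (4.42-fold) and S100b (2.52-fold) were higher and Aldoc was lower (log2 -1.03). Of 9 vessel and pericyte markers, Cdh5 was higher (9.02-fold). Of 8 meningeal fibroblast markers, Igf2 (3.69-fold) and Ptgds (1.97-fold) were higher. Igf2 varied widely within TRAP_Chat, at 68.8 ± 69.5 CPM (SD, n = 3). The 8 summed to 283 CPM in replicate 1 of TRAP_Chat and to 111 and 90.2 CPM in replicates 2 and 3, against 49.3 to 93.8 CPM in TRAP_Snap25. Of 7 tested Schwann cell and sensory neuron markers, Scn9a was higher (5.16-fold). The part of these cells in the differences of the markers was not tested.

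**Figure D2:**
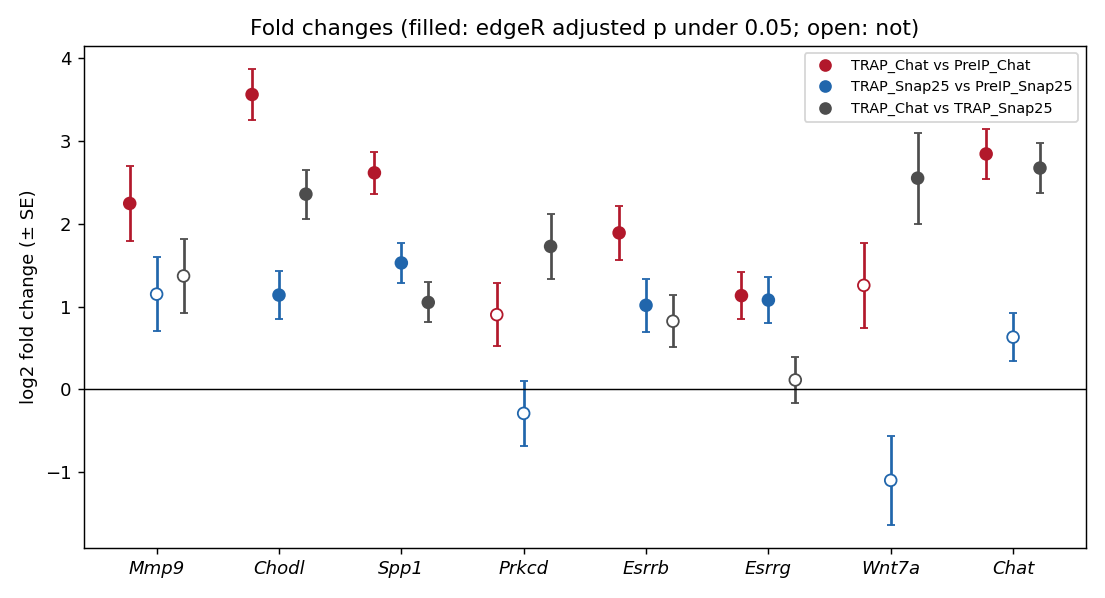
Log2 fold change of each marker, and of Chat, with its SE from the edgeR fit (filled points passed an adjusted p under 0.05, open points did not), for the Chat-line pulldown over its input, the Snap25-line pulldown over its input, and the Chat-line over the Snap25-line pulldown. Among the 7 markers Chodl has the largest Chat-line value, 3.56, and Wnt7a lies below 0 in the Snap25 line and at 2.55 between the pulldowns.

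The change from input to pulldown differed between the lines for 1 of the 7 markers, while 0.604% of all tested genes had a larger and 0.44% a smaller change in the Chat line (edgeR, adjusted p under 0.05). This was Chodl, whose change was larger in the Chat line by 2.42 ± 0.41 on the log2 scale, or 5.36-fold (edgeR adjusted p = 0.00855). The differences of the other markers were 2.35 ± 0.74 for Wnt7a (edgeR adjusted p = 0.168), 1.19 ± 0.55 for Prkcd (adjusted p = 0.412), 1.09 ± 0.34 for Spp1 (adjusted p = 0.158), 1.09 ± 0.63 for Mmp9 (adjusted p = 0.555), 0.87 ± 0.45 for Esrrb (adjusted p = 0.482) and 0.05 ± 0.39 for Esrrg (adjusted p = 0.982). In edgeR with all libraries, a difference between the lines was thus not shown for those 6. For Wnt7a the call depended on the fit, with 2.37 and an adjusted p of 0.0431 in DESeq2, and 3.23 with an adjusted p of 0.0216 in edgeR without replicate 1 of TRAP_Chat and replicate 3 of TRAP_Snap25. Between the inputs, PreIP_Chat against PreIP_Snap25, 0 of the 7 markers and 0% of all tested genes passed the threshold in edgeR, and 0 of the markers and 133 of all genes had an unadjusted p under 0.05. With no filter on low counts edgeR called 6 genes higher and 1 lower, and DESeq2 called 1 gene higher. The largest input difference among the markers was that of Prkcd, 0.54 ± 0.38 on the log2 scale (edgeR, unadjusted p = 0.183), with non-overlapping libraries, against 4.19% of all tested genes.

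Whether a marker followed the general cholinergic genes was read from its log2 CPM minus the mean log2 CPM of Chat, Slc18a3, Slc5a7, Prph and Isl1 in the same library. Only differences of this value between groups are given, since its level depends on gene length. With 3 libraries against 3, an exact two-sided permutation test cannot give a p under 0.1. A total of 14 such tests were made, and their lowest Benjamini-Hochberg adjusted value was 0.127. For Chodl the groups TRAP_Chat and PreIP_Chat overlapped, with a difference of 0.49 (exact permutation p = 0.2). The difference was -0.47 for Spp1, -0.81 for Mmp9, -1.21 for Esrrb, -1.89 for Wnt7a, -1.94 for Esrrg and -2.31 for Prkcd, with lower values in every TRAP_Chat library than in any PreIP_Chat library (exact permutation p = 0.1 for each, the smallest possible). Between TRAP_Chat and TRAP_Snap25 the differences were -0.47 for Wnt7a (exact permutation p = 0.4) and -0.61 for Chodl (exact permutation p = 0.2), and from -1.39 to -2.80 for the other 5 (exact permutation p = 0.1 for each). Slc18a3 lies inside the Chat locus, and its inputs did not overlap between the lines. It averaged 184 CPM in PreIP_Chat and 50.7 CPM in PreIP_Snap25 (edgeR, unadjusted p = 0.00206, adjusted p = 0.9998). Leaving it out kept the sign of all 14 differences, but their size varied between alternatives. Over 9 alternatives, this one among them, the difference between the pulldowns ran from -0.92 to -0.24 for Chodl and from -0.69 to -0.09 for Wnt7a.

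**Figure D3:**
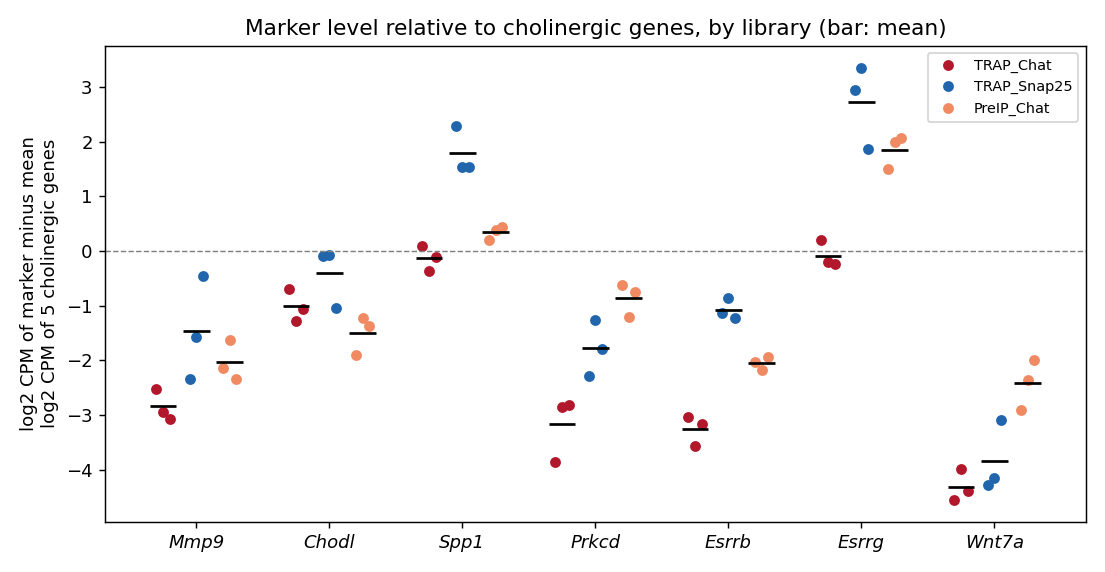
Log2 CPM of each marker minus the mean log2 CPM of 5 cholinergic genes, per library, for TRAP_Chat, TRAP_Snap25 and PreIP_Chat from left to right, with bars at group means. Chodl overlaps between TRAP_Chat and PreIP_Chat, with a difference of 0.49, and the other 6 lie lower in TRAP_Chat than in PreIP_Chat.

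Levels of different genes were compared per length, as mean CPM per kilobase of exon in GENCODE M21. In TRAP_Chat the order was Spp1 at 122, Esrrg at 33.3, Chodl at 19.7, Mmp9 at 8.61, Prkcd at 4.87, Esrrb at 3.79 and Wnt7a at 3.63 CPM per kilobase. In TRAP_Snap25 it was Spp1 at 58.9, Esrrg at 30.7, Chodl at 3.84, Mmp9 at 3.36, Esrrb at 2.14, Prkcd at 1.47 and Wnt7a at 0.630. In PreIP_Chat Spp1 led at 19.9, then Esrrg at 15.2, and Chodl stood at 1.67, after Prkcd at 2.61 and Mmp9 at 1.82. In PreIP_Snap25 Chodl, at 1.75, stood just below Prkcd at 1.80 and above Mmp9 at 1.50. Chodl thus came right after Esrrg in both pulldowns and after Prkcd in both inputs, while its order against Mmp9 differed between the inputs.

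**Figure D4:**
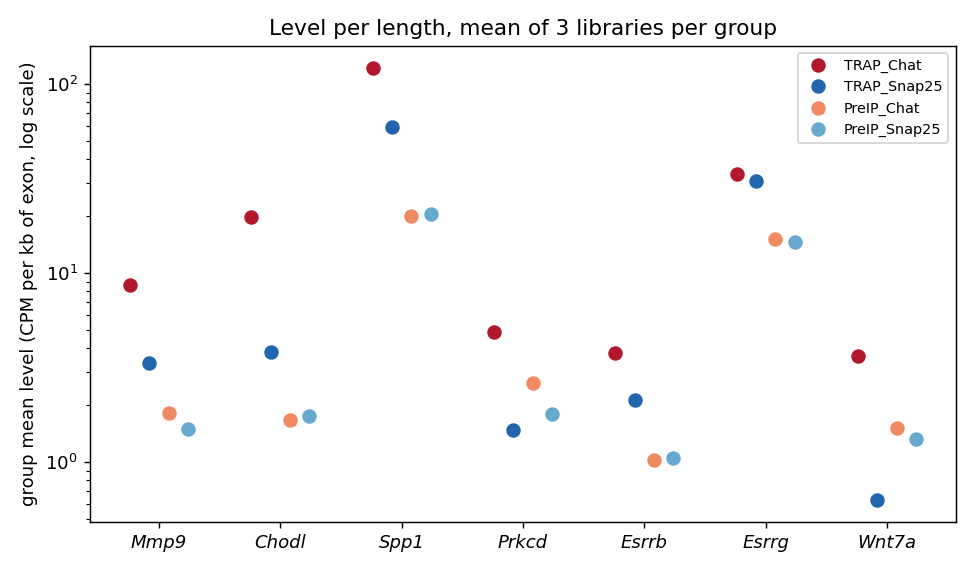
Mean CPM per kilobase of exon for each marker, on a log axis, with 1 point for each of TRAP_Chat, TRAP_Snap25, PreIP_Chat and PreIP_Snap25. Spp1 and Esrrg lead in every group, at 122 and 33.3 in TRAP_Chat.

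Other markers of the same subtypes were listed with 6 of the 7, and Prkcd is in none of these lists. Of 4 listed fast markers (Mmp9, Chodl, Calca and Calcb), 4 rose in TRAP_Chat against PreIP_Chat, and 3 were higher in TRAP_Chat than in TRAP_Snap25. Calca, which encodes the peptide CGRP, averaged 280 ± 32.2 CPM in TRAP_Chat, 67.2 ± 20.6 CPM in TRAP_Snap25, 20.6 ± 2.44 CPM in PreIP_Chat and 24.4 ± 13.9 CPM in PreIP_Snap25, and was 13.6-fold higher in the Chat-line pulldown than in its input (edgeR adjusted p = 5.84e-06). Calcb, its near copy, with which it may share reads, was 14.9-fold higher. Of 3 slow markers (Esrrb, Sv2a and Kcnn3), 1 rose and 1 fell in TRAP_Chat against PreIP_Chat. Sv2a, a synaptic vesicle protein found in many neurons, averaged 95.9 ± 12.8 CPM in TRAP_Chat and 289 ± 41.6 CPM in PreIP_Chat (log2 -1.59, edgeR adjusted p = 0.00201). Kcnn3, a calcium-activated potassium channel, was higher in TRAP_Chat than in TRAP_Snap25 (log2 1.18, edgeR adjusted p = 0.0456).

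Of 4 gamma markers (Esrrg, Wnt7a, Gfra1 and Htr1d), 2 rose in TRAP_Chat against PreIP_Chat, and 3 were higher in TRAP_Chat than in TRAP_Snap25. Gfra1, a receptor for the growth factor GDNF, averaged 122 ± 32.7 CPM in TRAP_Chat and 48.6 ± 3.98 CPM in PreIP_Chat (edgeR adjusted p = 0.00285). Htr1d, a serotonin receptor, was 5.43-fold higher in TRAP_Chat than in TRAP_Snap25 (edgeR adjusted p = 0.0298). Esrrg was thus the gamma marker that was not higher in TRAP_Chat than in TRAP_Snap25 by the test. Of 3 alpha markers (Spp1, Vipr2 and Rbfox3), 2 rose in TRAP_Chat against PreIP_Chat. Vipr2, a receptor for the peptide VIP, was 11.3-fold higher (edgeR adjusted p = 6.78e-06), while Rbfox3, which is found in most neurons, had a log2 value of 0.34 (edgeR adjusted p = 0.386).

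Among relatives and partners of the 7, some rose and some fell in TRAP_Chat against PreIP_Chat, where 12.6% of all tested genes rose and 14.3% fell. Whether these short lists differed from those shares was not tested. Of 12 tested metalloproteinases, inhibitors and partners of Mmp9, 1 rose and 3 fell in TRAP_Chat against PreIP_Chat. Lcn2, a secreted lipocalin known in humans to bind MMP9, averaged 30.2 ± 9.03 CPM in TRAP_Chat and 3.74 ± 0.960 CPM in PreIP_Chat (log2 3.01, edgeR adjusted p = 0.000207). Mmp14 and the inhibitors Timp4 and Timp3 fell, by log2 values of -2.81, -1.73 and -1.07. Of 9 tested receptors for osteopontin, the integrin subunits Itgb1 and Itgb5 rose (log2 0.96 and 1.42) and Itgav and Itgb3 fell (log2 -1.74 and -2.27). Of 8 partners of the estrogen-related receptors, Esrra, the third receptor of the family, rose in both pulldowns, by log2 1.07 in TRAP_Chat against PreIP_Chat and 1.19 in TRAP_Snap25 against PreIP_Snap25 (edgeR adjusted p = 0.0260 and 0.0194). Perm1 fell in the Chat line (log2 -2.75).

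Of 7 tested protein kinase C genes other than Prkcd, Prkch rose and Prkce and Prkcq fell in TRAP_Chat against PreIP_Chat. The shares of all tested genes there were 12.6% rising and 14.3% falling. Between the pulldowns 1 was called, Prkcb, which was lower in TRAP_Chat (log2 -0.82, edgeR adjusted p = 0.0388), whereas Prkcd was higher. Of 16 genes of Wnt7a secretion and reception, 0 rose and 6 fell in TRAP_Chat against PreIP_Chat. They included Wnt7b, the closest relative of Wnt7a (log2 -2.69, edgeR adjusted p = 0.00248), Wls, the carrier that brings Wnt proteins to the surface (log2 -2.04), and the receptors Fzd1 and Lrp6 (log2 -1.27 and -1.33). Between the pulldowns 0 of these 16 passed the edgeR threshold.

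The patterns of the 7 over the 12 libraries were compared by the root mean square distance of mean-centred log2 CPM, in which a smaller value is a closer match. Esrrb and Esrrg were the closest pair, at 0.443, followed by Esrrb and Spp1 at 0.459, and Chodl and Wnt7a the farthest, at 1.30. Among all other genes, Uts2b (0.281), Kcnj14 (0.314) and Slc10a4 (0.324) lay nearest to Chodl, and Cpne6 (0.328), Arhgap9 (0.332) and Syt17 (0.353) nearest to Mmp9. Fndc4 (0.228) lay nearest to Spp1, Adgra1 (0.201) to Esrrb, Map2k4 (0.168) to Esrrg, Slc25a30 (0.350) to Prkcd and Tnfrsf1a (0.397) to Wnt7a.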

How the data were processed

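RNA from 12 libraries in 4 groups of 3 was analysed, with groups taken from the sample titles. Raw read counts per gene were deposited by the authors, and the submitters' processing notes name STAR and HTSeq. Their versions, the build, the annotation and the strandedness used are not given in the sources. Of 41736 lines, 824 repeated another line and were dropped, leaving 40912 gene IDs. In edgeR 4.0.16 (R 4.3.3), low counts were filtered by filterByExpr (10 counts, here 0.585 CPM, in 3 libraries; the lowest value of a marker was 1.25 CPM), libraries were scaled by TMM, and all 12 were fitted together with quasi-likelihood tests. P-values are two-sided and Benjamini-Hochberg adjusted over 15905 genes, with a threshold of 0.05, in 5 comparisons. Alternatives used DESeq2 1.42.0, limma voom 3.58.1, other filters and scaling, the libraries compared alone, and left-out libraries. The fits were tested on simulated data. Whether replicates are separate animals is not stated, so p-values measure the spread between libraries, which may be technical. No pulldown from untagged mice was analysed here. The markers and gene lists were chosen with earlier results of these data known. Genes named are the 7 markers, Chat, up to 4 genes per list with the smallest adjusted p in the Chat-line comparisons, and up to 3 genes nearest in pattern.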

Additional observations from a re-analysis of the deposited data

Results flagged for a closer look

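The enrichment of Chodl differed between the lines. Its change from input to pulldown was larger in the Chat line than in the Snap25 line by 2.42 on the log2 scale, as tested by an interaction term in edgeR (adjusted p = 0.00855). Every library of TRAP_Chat was higher than every library of TRAP_Snap25, and the inputs of the lines overlapped. Groups of 3 libraries are too small for a test of single outlying samples, so that none was made. Leaving out each of the 12 libraries in turn gave 2.22 to 2.67, and the call was kept each time.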

How the results depend on the processing

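Of 553 repeats of single-gene values, 501 kept their direction and side of the threshold. Of 442 repeats of counts and relative values, 390 stayed within their limits. These were wide, since a relative value had only to keep its sign and a count could move by a set factor. Markers higher between the pulldowns, 4 with all libraries, were 3 to 5 with 1 library left out, which passed as unmoved. In TRAP_Chat against TRAP_Snap25, all genes called higher and lower (632 and 441) were 1085 and 676 with no filter, 1026 and 746 with DESeq2, 237 and 145 with the compared libraries alone, and 253 and 162 with the replicate block. Genes whose change differed between the lines (96 and 70) were 269 and 184 with no filter, 292 and 209 with DESeq2, and 106 lower with voom. DESeq2 called 2 markers there, Chodl and Wnt7a. The inputs gave 6 higher and 1 lower with no filter, 1 higher with DESeq2 and 1 with the block. With the compared libraries alone, 2 markers were called in each of TRAP_Snap25 against PreIP_Snap25 and TRAP_Chat against TRAP_Snap25, and 890 genes rose in the Snap25-line comparison. Without TRAP_Chat replicate 1 and TRAP_Snap25 replicate 3, an alternative chosen after seeing the data, 1 marker fell in the Snap25 line, 2228 genes rose in the Chat line, 1907 rose and 2758 fell in the Snap25 line, 973 and 583 genes differed upward and downward between the pulldowns, the lines differed for 2 markers and for 211 genes higher and 139 lower, and Esrrg was -0.12 between the pulldowns and -0.18 between the lines. Leaving out 1 library at a time gave 1191 to 1767 genes higher in the Chat line, 2 to 5 markers higher and 0 to 1 lower in the Snap25 line, 675 to 1688 and 1298 to 2321 genes higher and lower there, 355 to 961 and 266 to 574 between the pulldowns, and 26 to 152 and 26 to 97 between the lines. It turned the sign of Esrrg between pulldowns (-0.16 to 0.39) and between lines (-0.22 to 0.33), and between inputs of Chodl (-0.31 to 0.088), Esrrb (-0.26 to 0.32), Esrrg (-0.11 to 0.18), Spp1 (-0.18 to 0.093) and Wnt7a (-0.055 to 0.80). The cause of these changes was not tested. Within a line, pulldown and input libraries of one number share a suffix in their descriptions, whose meaning is not stated. Their deviations from the group means correlated with r of 0.060, 0.102 and 0.127 in the Chat line and -0.037, 0.167 and 0.147 in the Snap25 line. For libraries of unlike number, r was -0.102 to -0.020 in the Chat line and -0.299 to 0.167 in the Snap25 line. In the Chat line every matched r was thus the higher, and in the Snap25 line they overlapped. The main fits did not treat them as pairs, which the replicate block did within a line. Between the lines the block joins libraries that share a number but not a suffix. With the replicate block Spp1 between the pulldowns was 1.07 (adjusted p = 0.0707). Wnt7a and the weaker Snap25-line levels rest on few reads, which limits their precision.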
